A study of Homo sapiens with 6 samples.

Results

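The 40 genes described here encode proteins that drive entry into mitosis, build the kinetochore and the spindle, and split the cell. They were taken from a fixed list of symbols, all 40 were matched to an Ensembl ID of the count table, and that table holds 57773 genes in all. The cells were U251, a long-established line from a human glioblastoma, in the form of 2 stable lentiviral derivatives. The PD-L1 line overexpresses PD-L1, the T-cell checkpoint ligand encoded by CD274, and the Vector line carries the vector alone. Each line gave 3 dishes (n = 3 in every mean below), harvested 12 h after passage in DMEM with 10% serum, at passages 5 to 10, with no drug or synchronising agent named in the labels. The labels do not say that the lines were transduced more than once, so each p-value reflects the spread of dishes within 2 lines, which may be technical. The question is whether transcripts of the mitotic machinery differ between cells with and without PD-L1 overexpression.

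Cyclin B with CDK1, helped by PLK1 and the Aurora kinases, drives a cell into mitosis. Kinetochores assembled on CENPA chromatin then capture microtubules, while checkpoint proteins such as BUB1B and MAD2L1 hold back the anaphase-promoting complex (APC/C). Once CDC20 is released, the APC/C marks securin and cyclin B for destruction, chromatids part, and the central spindle and contractile ring divide the cell. Most of these genes are transcribed in G2 and mitosis, so their RNA in a growing culture follows the share of cells in those phases. In bulk RNA a smaller share of such cells and less RNA per cell cannot be told apart. Many of their promoters carry a CHR element (cell cycle genes homology region), which is bound by MuvB complexes, and CCAAT boxes, which are bound by NF-Y.

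Promoter windows in RefSeq (GRCh38.p14), from 250 bases before to 50 after the transcription start, were matched for 34 of the 40 members. AURKA, BUB3, TTK, BIRC5, UBE2C and TPX2 were not matched. A CHR, searched as TTTGAA or TTCGAA on both strands, was found in 25 of the 34 windows (73.5%), against 16.6% of the windows of 27305 genes. CCAAT, on both strands, was found in 27 of the 34 (79.4%), against 35.7% of all windows, and both motifs together in 61.8% of members against 6.58% of all. An E2F motif (TTTCCCGC, TTTGGCGC, TTTCGCGC or TTTGCCGC on either strand) was found in 3 members, or 8.82%, against 3.33% of all windows. These are matches of letters and not evidence of binding.

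The 150 bases before the start are printed for the 2 members that changed, CENPE and ANLN, and for CCNB1, CCNB2 and PLK1, mitotic regulators that did not pass the test. Capitals mark CHR and CCAAT letters on either strand. The windows are chr4:103198344-103198493 (minus strand) for CENPE, chr7:36389712-36389861 (plus) for ANLN, chr5:69167000-69167149 (plus) for CCNB1, chr15:59104996-59105145 (plus) for CCNB2 and chr16:23678739-23678888 (plus) for PLK1, each read 5′ to 3′ in the direction of the gene.
CENPE: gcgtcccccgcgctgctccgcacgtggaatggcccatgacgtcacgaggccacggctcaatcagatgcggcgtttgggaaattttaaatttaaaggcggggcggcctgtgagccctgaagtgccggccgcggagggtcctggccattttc
ANLN: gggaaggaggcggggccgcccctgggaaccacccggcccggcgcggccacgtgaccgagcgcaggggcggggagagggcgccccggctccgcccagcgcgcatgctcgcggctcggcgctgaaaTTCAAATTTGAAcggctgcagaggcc
CCNB1: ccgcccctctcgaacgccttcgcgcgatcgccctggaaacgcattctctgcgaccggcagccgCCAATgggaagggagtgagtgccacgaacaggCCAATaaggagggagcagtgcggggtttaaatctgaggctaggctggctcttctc
CCNB2: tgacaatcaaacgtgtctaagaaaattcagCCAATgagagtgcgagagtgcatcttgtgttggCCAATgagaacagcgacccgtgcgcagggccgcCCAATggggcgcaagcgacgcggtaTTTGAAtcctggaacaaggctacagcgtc
PLK1: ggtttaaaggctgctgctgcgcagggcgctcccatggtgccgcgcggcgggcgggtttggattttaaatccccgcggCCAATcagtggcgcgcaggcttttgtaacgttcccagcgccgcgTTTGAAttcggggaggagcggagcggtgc
ANLN holds TTTGAA on both strands back to back, from base -26 to -21 and from -20 to -15, and no CCAAT in its whole window. CENPE holds neither motif in the letters searched, and other letters were not searched for a CHR. In CCNB2 and PLK1 a CHR lies at the same distance, from -29 to -24, and CCNB1 has a pair of CCAAT boxes and no CHR in these letters. The 2 genes that changed therefore differ from each other in these letters, and no further use is made of the sequences.

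Totals ranged from 15678989 to 22270509 counts per dish, so that 3 counts correspond to 0.138 to 0.185 CPM (counts scaled to a common library size). CD274 was at 1309, 1356 and 1234 CPM in PD-L1 dishes 1 to 3 and at 1.56, 3.47 and 2.21 CPM in the Vector dishes, as labelled. PD-L1 dish 3 stood apart. Its root-mean-square distance to the other dishes of its group, averaged over the pairs, was 0.36 log2 units, against 0.29 to 0.32 for the other 5 dishes, and chi-square per degree of freedom was 13.6 and 14.5 for its pairs, against 2.84 to 9.15 for the other pairs. The trend of log2 CPM per 10 points of GC content also differed between dishes, at -0.11, -0.06 and 0.03 in PD-L1 dishes 1 to 3 and 0.11, -0.01 and 0.03 in Vector dishes 1 to 3. Astrocyte and glioma markers (GFAP, S100B, VIM, NES, SOX2, EGFR) were all detected and summed to 331 to 430 CPM per PD-L1 dish against 581 to 654 CPM per Vector dish, mostly from VIM, with GFAP between 1.45 and 3.82 CPM and S100B between 0.25 and 1.56 CPM. Of these 6 genes 5 passed as lower in PD-L1 dishes. Neuronal markers (0 of 5 passed) summed to 24.0 to 25.9 CPM against 24.3 to 28.2 CPM. Leukocyte markers summed to 0.642 to 1.27 against 1.56 to 2.21 CPM, and only 1 of the 5 had enough counts to be tested. That gene, AIF1, was lower, at 4, 1 and 0 counts in PD-L1 dishes against 14, 18 and 12 in Vector dishes. Endothelial markers summed to 3.03 to 3.91 against 4.79 to 5.92 CPM, with 3 of 4 tested and 2 lower. The other tested gene, CDH5, went the other way but did not pass (log2 fold change 0.71, adjusted p = 0.151). PECAM1, also listed, was not matched to an ID. No marker was at 0 in all dishes. The part of these differences in the results below was not tested.

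All 40 members passed the filter on low counts and lay well above the detection limit, with means over the 6 dishes from 21.8 CPM (CENPA) to 638 CPM (TOP2A). Together they took 0.584, 0.574 and 0.560% of the counts in PD-L1 dishes 1 to 3 and 0.543, 0.580 and 0.566% in the Vector dishes, so the groups overlapped. Levels of different genes were compared as CPM per kilobase of the longest GENCODE 29 transcript, a length that need not be that of the isoform these cells use. On this scale UBE2C, the E2 enzyme of the APC/C, was the most abundant in Vector dishes at 209 ± 8.35 (SD), followed by CCNB1 at 152 ± 10.2, CDC20 at 130 ± 4.26 and TOP2A at 108 ± 5.90. The lowest were BIRC5 at 10.5 ± 0.68 and CENPE, a kinetochore motor with a very long transcript, at 7.47 ± 1.02. From ECT2 at 35.1 down to NDC80 at 24.9, each gene differed from the next by less than the larger SD of the pair. The order of neighbours in this run is not resolved.

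**Figure D1:**
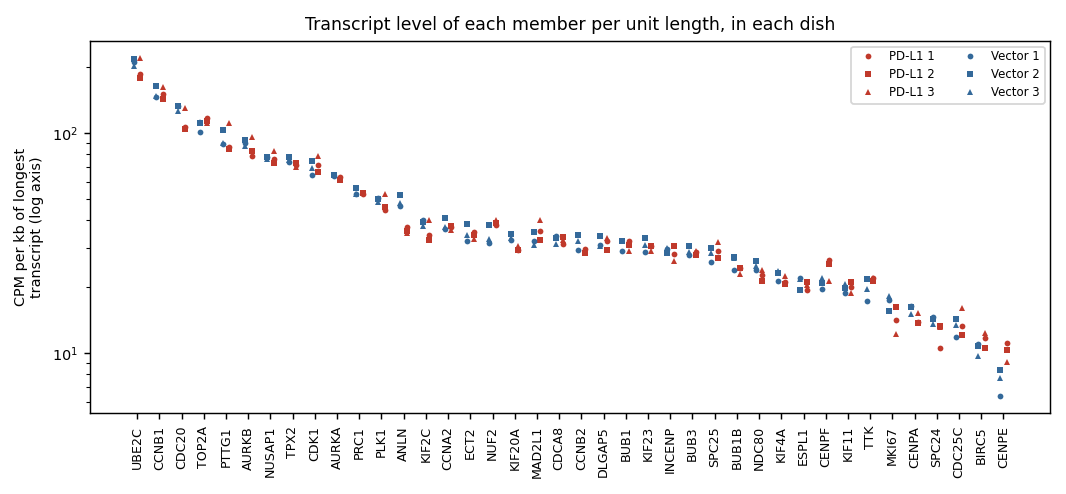
Transcript level of each member as CPM per kilobase of its longest transcript (log axis) in the 3 PD-L1 dishes (red) and the 3 Vector dishes (blue), ordered by the Vector mean. Levels ran from 209 for UBE2C to 7.47 for CENPE in Vector dishes, and red and blue symbols lay close together for most genes, with ANLN (red below blue) and CENPE (red above blue) as the genes that changed.

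Subunits that work in a fixed complex were not equal in transcript level per length. In the Ndc80 complex, which binds microtubules at the outer kinetochore, NUF2 was at 34.3 ± 3.41, SPC25 at 28.2 ± 2.18, NDC80 at 24.9 ± 1.19 and SPC24 at 14.1 ± 0.51 CPM per kilobase in Vector dishes. In PD-L1 dishes the same order held, at 39.2 ± 1.14, 29.3 ± 2.45, 22.5 ± 1.27 and 12.3 ± 1.49. In the chromosomal passenger complex the kinase AURKB was at 90.1 ± 2.46, against 32.9 ± 1.40 for CDCA8 (borealin), 29.5 ± 0.82 for INCENP and 10.5 ± 0.68 for BIRC5 (survivin).

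Between the lines, the mitotic genes as a group stayed within a narrow range. In the edgeR quasi-likelihood test with Benjamini-Hochberg adjustment over 15818 genes, 1 of the 40 members was higher in PD-L1 dishes (CENPE), 1 was lower (ANLN), and 38 did not pass. DESeq2 and limma-voom also called these 2 members and no other. Of all genes tested 8.75% passed, 1.55% as higher and 7.20% as lower. The members' share of 5.00% was thus no higher than the background in this fit. With the trends of GC content and length removed this share was higher, but not when the replicate number was also in the model. Values are given after the role groups. The median log2 fold change (PD-L1 minus Vector) was -0.04 over the members and 0.02 over all genes tested, and the median size of the change, regardless of sign, was 0.07 for members and 0.15 for all genes. Among tested genes with a mean CPM in the range of the members that median size was 0.11. The 95% interval of the fold change lay within 1.5-fold in either direction for 38 of the 40 members, all but CENPE and ANLN, and within 1.25-fold for 29. Before adjustment, 7 members had p under 0.05, namely ANLN, CENPE, MKI67, CENPF, KIF20A, CDC20 and NUF2, or 17.5%, against 23.6% of all genes tested. The 3 PD-L1 dishes lay wholly above the Vector dishes for 2 members and wholly below for 6, against 27.6% of all genes tested in either direction.

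**Figure D2:**
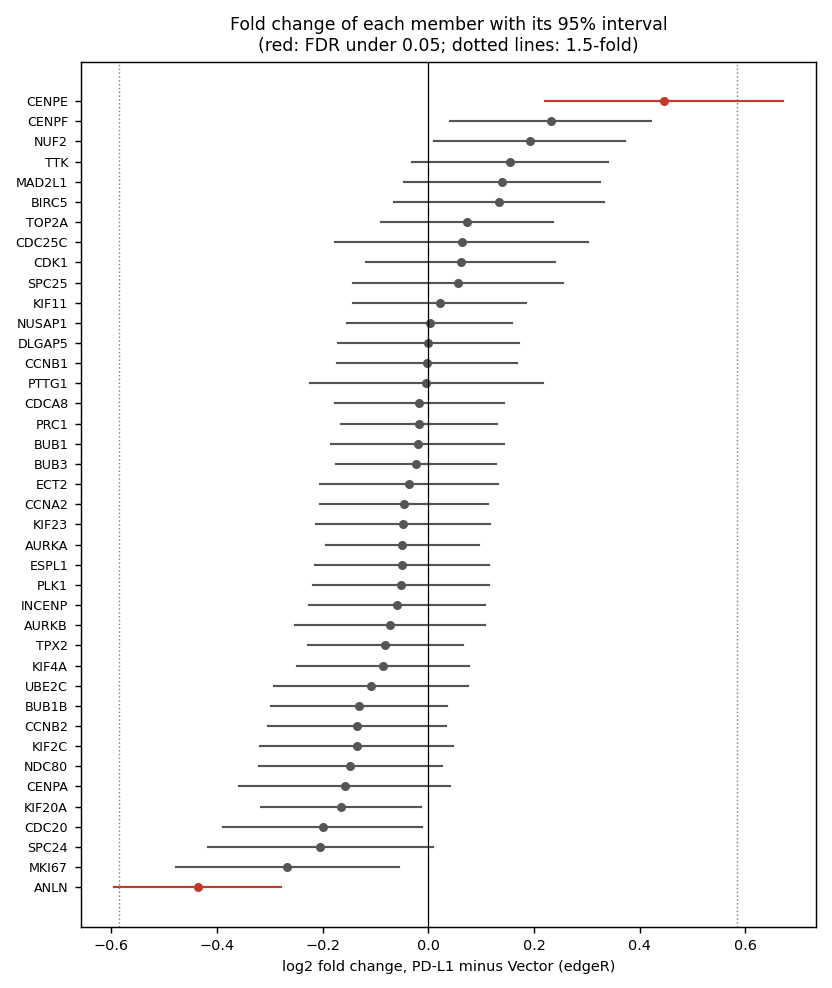
Log2 fold change of each member (PD-L1 minus Vector, points) with its 95% interval (lines), sorted by value, with members past the FDR of 0.05 in red and dotted lines at 1.5-fold. Of the 40 members 33 have an interval that spans 0, and the intervals of CENPE and ANLN reach past 1.5-fold.

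ANLN (ENSG00000011426) encodes anillin, the scaffold that ties actin, myosin and septins together in the cytokinetic ring. It was at 179, 172 and 168 CPM in PD-L1 dishes 1 to 3 and at 223, 250 and 229 CPM in Vector dishes 1 to 3. Every PD-L1 dish was below every Vector dish, and the gap between the groups was wider than the spread within either. The PD-L1 mean was 173 ± 5.50 CPM (SD) against 234 ± 14.4 CPM for Vector, and ANLN fell 1.35-fold (log2 fold change -0.44 ± 0.07 SE, adjusted p = 0.00244). ANLN was called lower in all 16 alternative analyses, with log2 fold changes between -0.52 and -0.39. It overlaps KIAA0895 on the opposite strand, which the library kit cannot separate, but that gene held 2340 counts over the 6 dishes against 23791 for ANLN.

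CENPE (ENSG00000138778) encodes the kinesin that carries chromosomes to the metaphase plate. It was at 96.0, 88.5 and 78.1 CPM in PD-L1 dishes 1 to 3 and at 54.8, 72.0 and 66.2 CPM in Vector dishes 1 to 3. The groups did not overlap, though PD-L1 dish 3 and Vector dish 2 were close. The PD-L1 mean was 87.5 ± 9.03 CPM against 64.3 ± 8.77 CPM for Vector, and CENPE rose 1.36-fold (log2 fold change 0.45 ± 0.10, adjusted p = 0.0173). The call ended without PD-L1 dish 1 (adjusted p = 0.0839), PD-L1 dish 2 (0.0506) or Vector dish 1 (0.104), while the log2 fold change stayed between 0.34 and 0.53 over all alternatives. With 35.3% GC, CENPE has the lowest GC content of the 40 members, and its log2 fold change was 0.37 (adjusted p = 0.00359) in a fit whose offset removed the trends with GC and length from each dish.

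Other genes of the centromere and outer kinetochore were mixed, and none of the remaining 6 passed. CENPF, a large kinetochore and nuclear matrix protein, was at 272, 262 and 219 CPM in PD-L1 dishes and at 201, 214 and 226 CPM in Vector dishes, so PD-L1 dish 3 lay among the Vector dishes (log2 fold change 0.23 ± 0.09, adjusted p = 0.127). Without that dish CENPF passed, at 0.32 with an adjusted p of 0.00135. The Ndc80 subunits gave log2 fold changes of 0.19 for NUF2, 0.06 for SPC25, -0.15 for NDC80 and -0.20 for SPC24, with adjusted p from 0.185 to 0.760. CENPA, the histone H3 variant that marks centromeres, had -0.16. CENPA overlaps SLC35F6 on the same strand, with a similar number of counts, so its value is uncertain, and the value of SPC24 is uncertain too.

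Cyclins and entry kinases did not pass in any of 7 cases, and all 7 intervals lay within 1.25-fold. CCNB1, the main mitotic cyclin, was at 326, 308 and 350 CPM in PD-L1 dishes and at 314, 354 and 317 CPM in Vector dishes, a full overlap. Its interval ran from -0.17 to 0.17 on the log2 scale. CCNB2, with the smallest adjusted p of the group (0.322), was at 74.3, 71.6 and 72.8 CPM against 73.6, 85.7 and 80.9 CPM, so Vector dish 1 lay among the PD-L1 dishes. CDK1, the kinase both cyclins activate, had a log2 fold change of 0.06, its phosphatase CDC25C 0.06, CCNA2 -0.05, and the kinases PLK1 and AURKA -0.05 each. CCNA2 and CDC25C overlap EXOSC9 and FAM53C on the opposite strand, and FAM53C has more counts than CDC25C.

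The spindle assembly checkpoint genes likewise gave 0 of 5 calls. BUB3, a BUB1 and BUB1B partner that binds the kinetochore, was at 225, 218 and 229 CPM in PD-L1 dishes and at 219, 239 and 225 CPM in Vector dishes. TTK (MPS1), the kinase that starts the checkpoint signal, was at 81.9, 79.2 and 81.3 CPM against 64.5, 80.6 and 72.9 CPM. Its PD-L1 dishes were alike while the Vector dishes spread widely, and the groups overlapped (log2 fold change 0.15, adjusted p = 0.305). MAD2L1, the CDC20 inhibitor, had 0.14, the kinase BUB1 -0.02 and BUB1B -0.13.

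None of the 4 chromosomal passenger genes passed. INCENP, the scaffold of the complex, was at 112, 121 and 104 CPM in PD-L1 dishes and at 118, 113 and 119 CPM in Vector dishes. BIRC5 was at 31.7, 28.5 and 33.3 CPM against 29.8, 29.1 and 26.3 CPM, with overlap and a log2 fold change of 0.13 (adjusted p = 0.411). AURKB and CDCA8 had -0.07 and -0.02.

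Genes of the APC/C and of anaphase onset showed the split between PD-L1 dishes most plainly. CDC20, the APC/C activator held by the checkpoint, was at 189, 184 and 230 CPM in PD-L1 dishes 1 to 3 and at 235, 236 and 222 CPM in Vector dishes. PD-L1 dishes 1 and 2 lay below all Vector dishes and PD-L1 dish 3 among them. The log2 fold change was -0.20 ± 0.09 (adjusted p = 0.185), and -0.31 (adjusted p = 0.00141) without PD-L1 dish 3. UBE2C (log2 fold change -0.11) and PTTG1 (securin, -0.004) were highest in PD-L1 dish 3 of all 6 dishes, at 201 and 118 CPM. ESPL1, the separase that securin inhibits, had -0.05 and did not show this split. Over these 4 genes the median relative to the Vector mean was -0.15, -0.19 and 0.03 log2 units in PD-L1 dishes 1 to 3.

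Among spindle motors and microtubule proteins 0 of 6 passed. TPX2, which activates AURKA and nucleates spindle microtubules, was at 257, 263 and 253 CPM in PD-L1 dishes and at 267, 279 and 272 CPM in Vector dishes. Its groups did not overlap, yet the difference was small (log2 fold change -0.08, adjusted p = 0.507). KIF2C, a microtubule-depolymerising kinesin, was at 101, 96.2 and 119 CPM against 119, 117 and 112 CPM (log2 fold change -0.14, adjusted p = 0.360). KIF11 (Eg5, which pushes spindle poles apart), the chromokinesin KIF4A, NUSAP1 and DLGAP5 had log2 fold changes from -0.09 to 0.02. KIF4A overlaps PDZD11 on the opposite strand.

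The 4 partners of ANLN in the central spindle and cytokinesis group did not pass. PRC1, the protein that bundles midzone microtubules, was at 216, 218 and 217 CPM in PD-L1 dishes and at 215, 229 and 215 CPM in Vector dishes. KIF20A, a midzone kinesin, had a log2 fold change of -0.17 ± 0.07 with groups that did not overlap (adjusted p = 0.171), but the gene overlaps CDC23 and BRD8 on the opposite strand. KIF23, the motor subunit of centralspindlin, and ECT2, the exchange factor that starts ring assembly at the midzone, had -0.05 and -0.04.

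Of the mitotic chromosome genes, TOP2A, the DNA topoisomerase that untangles sister chromatids, was at 672, 654 and 636 CPM in PD-L1 dishes and at 582, 641 and 642 CPM in Vector dishes (log2 fold change 0.07, adjusted p = 0.602). MKI67, the proliferation marker Ki-67, was at 178, 205 and 155 CPM against 221, 197 and 230 CPM. PD-L1 dish 2 lay above Vector dish 2, so the groups overlapped, and the log2 fold change of -0.27 ± 0.10 did not pass (adjusted p = 0.113). It passed with no filter on low counts (adjusted p = 0.0184), without PD-L1 dish 2 (0.0441), with the offset (0.0242), and when that offset was combined with leaving out PD-L1 dish 3 (0.0188).

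**Figure D3:**
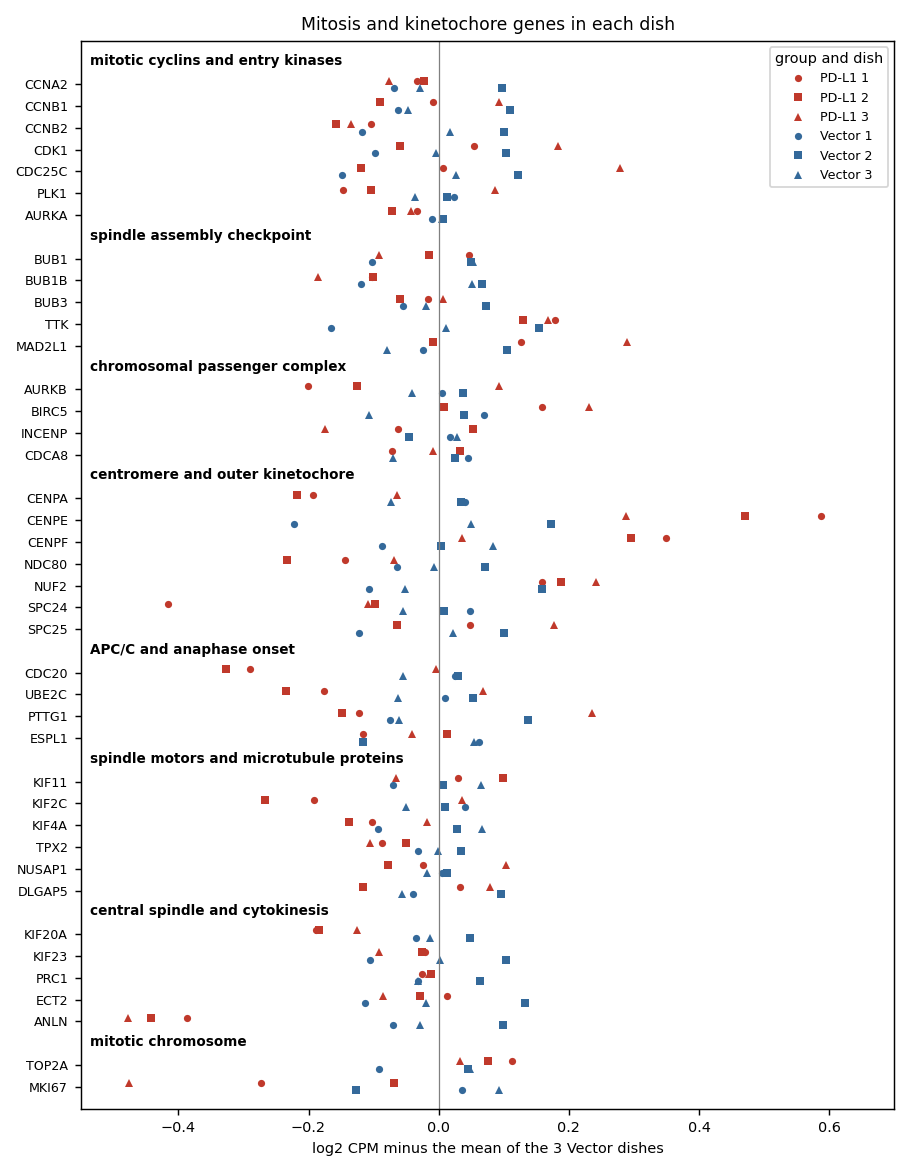
Log2 CPM of each member in each dish minus the mean of the 3 Vector dishes, with PD-L1 dishes in red, Vector dishes in blue and a symbol for each dish number, grouped by role. The median over all 40 members was -0.03, -0.07 and -0.01 in PD-L1 dishes 1 to 3 and -0.06, 0.05 and -0.02 in Vector dishes 1 to 3, so the dishes of both groups interleave.

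PD-L1 dish 3 and the GC trends changed which members passed. Without PD-L1 dish 3, CENPE and CENPF were higher and ANLN, CDC20, UBE2C, KIF2C and KIF20A were lower, 7 of 40 members or 17.5%, while 21.6% of all genes passed in that fit. With the offset, CENPE and CENPF were higher and ANLN, NDC80, MKI67, CCNB2, KIF20A and BUB1B were lower, 8 of 40 (20%), while 13.3% of all genes passed. With both changes together 15 of 40 members passed, 2 higher and 13 lower, or 37.5%, while 21.4% of all genes passed. Of the 40 members, 15 were called in at least 1 of the 16 alternative analyses and 25 in none. No member besides ANLN passed in all of them.

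**Figure D4:**
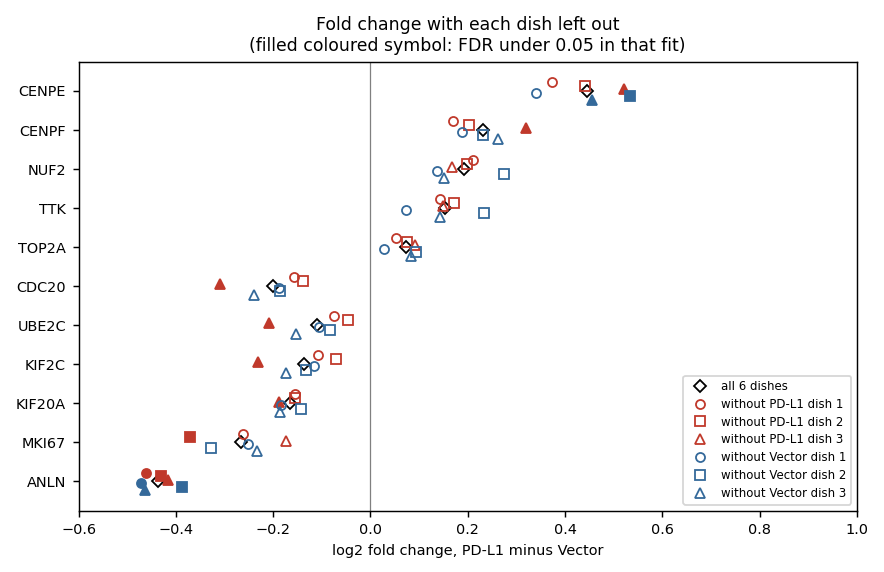
Log2 fold change (PD-L1 minus Vector) of 11 members, chosen after their values were seen, with all 6 dishes (black diamonds) and with each dish left out in turn (coloured symbols, filled where the FDR is under 0.05 in that fit). ANLN is filled in all 6 fits, CENPE in 3, and CENPF, CDC20, UBE2C, KIF2C and KIF20A only without PD-L1 dish 3.

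Across the 40 members the fold change went with base composition. Spearman's rank correlation between log2 fold change and GC content was -0.51 over the members and -0.29 over 15426 tested genes with known GC content. With the offset it was -0.07 over the members and -0.003 over the 15426 genes. The offset is fitted to remove the GC trend, so this fall follows from how it is built. These coefficients are across genes that share the same 6 libraries, so they describe these libraries only. For transcript length the rank correlation was 0.11 over the members, and 0.32 with the offset.

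**Figure D5:**
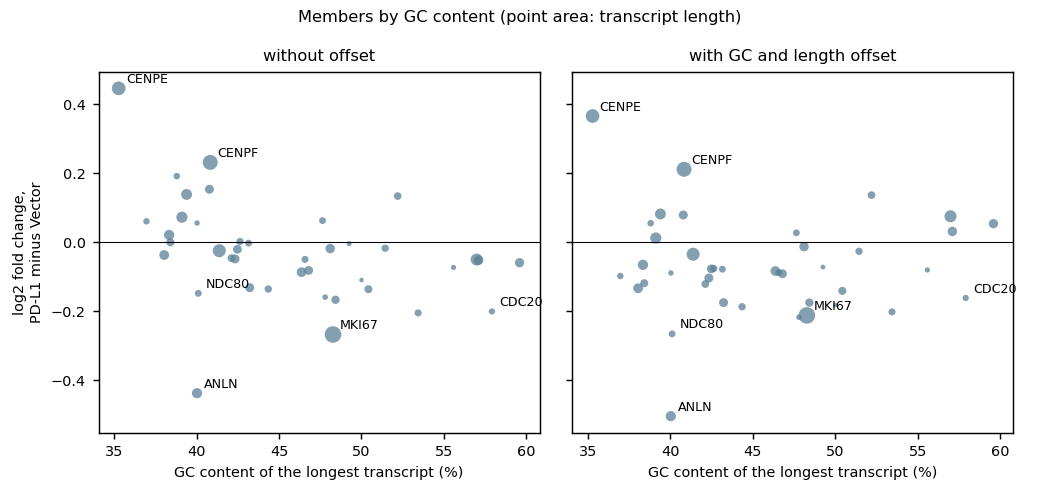
Log2 fold change (PD-L1 minus Vector) against GC content of the longest transcript for the 40 members, without (left) and with (right) the offset on GC and length, with point area proportional to transcript length. The rank correlation was -0.51 on the left and -0.07 on the right, a fall that follows from how the offset is built. CENPE and ANLN stay the extreme points in both panels.

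Related genes outside the 40 were examined as 8 lists with 96 genes, of which 95 were tested. Of these, 3 were higher and 2 lower in PD-L1 dishes, with a median log2 fold change of 0.03, a smaller share than the 8.75% of all genes tested that passed. KIF14, a cytokinesis kinesin, was at 82.1, 83.8 and 67.7 CPM in PD-L1 dishes and at 51.2, 61.6 and 59.5 CPM in Vector dishes (1.36-fold higher, adjusted p = 0.0138). ASPM, a spindle pole protein, was 1.28-fold higher (adjusted p = 0.0411) and STAG2, a cohesin subunit, 1.22-fold higher (adjusted p = 0.0498). PKMYT1, a kinase that inhibits CDK1, was 1.29-fold lower (adjusted p = 0.0183), and HJURP, the chaperone that loads CENPA, 1.26-fold lower (adjusted p = 0.0252). The 3 higher genes had 38.3, 37.1 and 36.6% GC, and the lower genes 66.2% (PKMYT1) and 48.8% (HJURP). All 5 were still called with the offset, and all 5 calls were lost when PD-L1 dish 1, PD-L1 dish 2 or Vector dish 1 was left out. STAG2 was called in 8 of the 16 alternatives. Its call was also lost with the replicate number in the model, with or without the offset, and without Vector dish 2 or Vector dish 3. The same held when only genes with a mean of at least 5 CPM were kept. ASPM was called in 10, HJURP in 12, and KIF14 and PKMYT1 in 13 each. KIF14, ASPM, PKMYT1 and HJURP belong to a list of 18 other mitotic regulators and STAG2 to a list of 11 cohesin genes.

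The other 6 lists gave 0 calls each in the edgeR test (DESeq2 called 1 gene, RRM2 of G1/S, and limma-voom 0), with unadjusted p under 0.05 for 1 of 13 genes of the inner kinetochore network, 1 of 9 of the MIS12, KNL1 and RZZ parts, 0 of 8 condensin genes, 2 of 12 APC/C core subunits, 2 of 10 MuvB and FOXM1 regulators and 3 of 14 genes of G1/S and DNA replication, against 23.6% of all genes tested. The members with the highest mean CPM, not corrected for length, were CENPW (log2 fold change 0.13), ZWINT (-0.08), NCAPD2 (-0.07), ANAPC5 (0.03), MYBL2 (-0.05) and the replicative helicase subunit MCM7 (-0.17). The median log2 fold change was 0.09, 0.08, -0.02, 0.02, 0.09 and -0.04 for these 6 lists in the same order.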

How the data were processed

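Libraries of poly-A RNA from 6 dishes (3 µg of total RNA each) were made with a NEBNext Ultra kit, per the labels' protocols; this kit keeps no strand information. CASAVA 1.8, STAR 2.5.1b, HTSeq 0.6.0 and build hg19 are named in the submitters' processing notes. Which annotation, strand setting and filters were applied is not given in the sources used here. Raw counts, as the authors deposited them for each Ensembl ID, were analysed. A second deposited table holds the same counts divided by 1 factor per dish and was not used.

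The members, gene lists and tests were chosen with earlier results of these data known. Counts of all 6 dishes were filtered with filterByExpr, scaled with TMM and tested in edgeR 4.0.16 (robust glmQLFit and glmQLFTest, no covariates, R 4.3.3) with Benjamini-Hochberg FDR under 0.05 over 15818 genes. The standard error is the fold change over the root of F, and 95% intervals from the test's degrees of freedom. Log2 CPM used a prior count of 2. Symbols were matched through a gene name table, and transcript length, GC content and overlaps from GENCODE 29, on another build, so no coordinates were taken from it. The fits were tested on simulated counts. Alternatives used DESeq2 1.42.0, limma-voom (limma 3.58.1), other scalings and filters, the replicate number as a block, each dish left out, and per-dish natural splines (5 degrees of freedom) on GC content and log length as an offset.

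Values in every dish were printed for members past the FDR and for the member with the smallest FDR and the member with the highest mean CPM, not corrected for length, of each role group. CENPF and MKI67 under other settings, UBE2C, PTTG1, KIF20A and NUF2 were singled out after their values were seen. Promoter windows were the first listed in RefSeq per gene. Pseudogenes and close paralogs named after members held at most 0.365% of the counts of their member. Arms of 3 dishes cannot reach an exact permutation p under 0.1.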

Additional observations from a re-analysis of the deposited data

How the results depend on the processing

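Over 16 alternative analyses and a stricter FDR, the values of the 40 members kept their call 649 times, passed 26 times where the analysis of 6 dishes had not, lost the call 4 times and changed sign 1 time: CDK1, at 0.06 with 6 dishes, was called at -0.16 with the GC and length offset and PD-L1 dish 3 left out. Signs of values that did not pass in either fit were not compared. Relative log expression, upper-quartile scaling, DESeq2, limma-voom, a mean of at least 5 CPM and the replicate block all left 1 member higher and 1 lower. That is 5.00% of the members, against 4.14% (DESeq2) to 9.22% (mean of at least 5 CPM) of all genes. The labels do not say whether the numbers in the titles pair dishes. Same-numbered dishes had correlations of deviations of -0.21, -0.05 and -0.19, and 0 of the 6 dishes correlated best with its own number. The block gave 238 higher and 1209 lower genes. Member counts higher in PD-L1 ranged from 0 to 2 and lower from 1 to 5 when 1 dish was left out. They were 2 and 6 with the offset, 1 and 2 with offset and block, 2 and 13 with the offset and PD-L1 dish 3 left out (37.5% of members against 21.4% of all genes), 1 and 2 without a low-count filter, and 0 and 1 at an FDR of 0.01. The members' median of -0.04 moved to -0.12 with the offset and PD-L1 dish 3 left out, and ranged from -0.06 to 0.004 with 1 dish left out. With upper-quartile scaling 19 members were above 0 and 21 below, against 12 and 28. Without Vector dish 2 these numbers were 21 and 19. Other settings went the other way, with 9 and 31 without PD-L1 dish 3, 11 and 29 with the offset, and 7 and 33 with both changes.

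Of all genes, 245 were higher and 1139 lower. Leaving out 1 dish gave 35 to 1271 higher and 510 to 2241 lower genes, with both highest counts without PD-L1 dish 3. Higher genes numbered 379 with upper-quartile scaling, 642 with the offset, 1260 (and 2220 lower) with the offset and PD-L1 dish 3 left out, and 22 (and 508 lower) at an FDR of 0.01. Related genes outside the 40 ranged from 0 to 8 higher and 0 to 11 lower when 1 dish was left out. The 8 and 11, out of 95 genes tested, came without PD-L1 dish 3, where 21.6% of all genes passed. The related genes gave 1 higher and 2 lower with a mean of at least 5 CPM, where 9.22% of all genes passed. They gave 4 higher and 6 lower with the offset, where 13.3% of all genes passed. With the offset and PD-L1 dish 3 left out they gave 6 higher and 7 lower, where 21.4% passed, and 0 of each at an FDR of 0.01. From 100 bases before to 50 after the start, CHR was found in 67.6% of members and 7.43% of genes, and CCAAT in 67.6 and 22.0%. The cause of these changes was not tested.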
